A study of Rattus norvegicus with 144 samples.

Results

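Heat shock proteins and chaperonins are the cell's protein folding machines, and this account covers their transcripts in rat blood after acetaminophen, a common painkiller that damages the liver at high doses. Members were all genes on the array whose symbol starts with Hspa, Hspb, Hspd, Hspe, Hsph, Hsp90 or Dnaj, or is Tcp1, Hsf1 or Cct followed by a digit, with Hspbap1 and Hspbp1 left out. The rule found 60 genes on 77 probes among 9653 genes with a symbol, and 55 of the 60 had enough values to be tested. Dnajb7, Dnajb14, Dnajc21, Hspa2 and Hspa13 were measured in too few animals and were not tested.

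Blood RNA came from 72 rats in 12 groups of 6, all males of the F344/N strain aged 10-12 weeks. Acetaminophen at 150, 1500 or 2000 mg/kg, or the 0.5% ethyl cellulose vehicle alone (0 mg/kg), was given by oral gavage in 2 doses, and the animals were killed at 3, 6 or 24 h. Each rat was hybridised on 2 two-colour arrays with the dyes exchanged, 144 arrays in all, against a pool of RNA that joined all 6 vehicle rats killed at that hour. Values are log2 ratios of an animal over that pool, so they compare animals and carry no absolute level, and a vehicle animal was itself part of the pool it was set against. No source used here states the scale or direction of the deposited ratios, which were read as log10 of Cy5 over Cy3. That reading is likely and not certain, and every "higher", "lower" and size below depends on it. Precision is limited by how many animals and arrays there were.

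The Hsp70 proteins hold unfolded chains in an ATP cycle that DnaJ proteins start and Hsp110 proteins reset, and Hsp90 finishes the folding of many kinases and receptors. The cytosolic chaperonin is a double ring built from Cct subunits and Tcp1 that folds actin and tubulin, and the mitochondrial chaperonin is a barrel of Hspd1 closed by a lid of Hspe1. Heat shock factor, encoded by Hsf1, raises many of these genes under stress by binding repeats of a short motif in their promoters.

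The promoters show which members carry that motif close to the start of the gene. RefSeq promoters of the rat build GRCr8, 250 bases before and 50 bases from the start on, matched 50 of the 60 members. Hsf1, Hsp90aa1 and Dnajc24 were among those without a match. For each member only the first promoter listed was searched, while the share of all promoters counts every promoter listed. The motif was searched on both strands as 3 units of GAA or its reverse TTC in alternating order, with any 2 bases between units. It was found in 0.798% of all 33469 promoters and in 5 of the 50 members (Hspe1, Hspd1, Hspa8, Hsph1 and Dnaja1). The shorter form with 2 units, GAANNTTC or TTCNNGAA, is contained in the longer one and stood in 15.9% of all promoters and in 17 of the 50 members. The stretches below are shown because Hspe1 is the one matched member that both passed a test in blood and carries the longer motif, Hspa8 and Hsph1 carry it and did not pass the test, and Tcp1 and Cct5, with the largest falls that passed the test at 3 h, lack it in this window. The window of Cct5 holds 1 match of the shorter form, 170 bases before the start and outside the printed stretch. The stretches end at the base before the start, and capitals mark every match of either form within them.
Hspe1, chr9:64084217-64084326, + strand: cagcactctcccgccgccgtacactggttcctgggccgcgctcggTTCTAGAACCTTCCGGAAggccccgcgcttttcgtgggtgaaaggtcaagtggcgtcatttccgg
Hspa8, chr8:50080424-50080513, + strand: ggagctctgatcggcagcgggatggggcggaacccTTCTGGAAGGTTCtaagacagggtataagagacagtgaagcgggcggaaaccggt
Hsph1, chr12:10427278-10427367, + strand: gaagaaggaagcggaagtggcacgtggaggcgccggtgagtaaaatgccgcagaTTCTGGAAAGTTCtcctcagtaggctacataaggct
Tcp1, chr1:50384528-50384647, - strand: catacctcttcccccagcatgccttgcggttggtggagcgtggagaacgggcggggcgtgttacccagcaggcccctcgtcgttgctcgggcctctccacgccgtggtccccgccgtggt
Cct5, chr2:84313774-84313893, - strand: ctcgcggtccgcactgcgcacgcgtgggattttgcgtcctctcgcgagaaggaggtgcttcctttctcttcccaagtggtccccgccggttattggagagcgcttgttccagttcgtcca
The capitals of Hspe1 hold 2 overlapping matches, which begin 65 and 60 bases before the start. The same bases lie in the window of Hspd1, which is read the other way from the shared promoter. A match is a description of letters and not a binding site. Only exact units within the window were searched, so the lack of a match does not show that a site is absent.

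At 2000 mg/kg 10 members fell at 3 h and 9 at 6 h, Tcp1 by the largest amount at both times, and no member rose beyond the test. With limma and Benjamini-Hochberg adjustment over all 14678 features, these were 10 of 55 members (18.2%) at 3 h, against 8.32% of all features that were lower, and 9 of 55 (16.4%) at 6 h, against 8.26% of all features. The median difference of the members was -0.10 at 3 h and -0.17 at 6 h on the log2 scale, beside 0.03 and 0.02 over all features. Below 0 lay 35 and 39 of the 55 members, and 40.0% and 44.1% of all features. At 24 h none of the 55 members passed the test, where 0.818% of all features did in either direction, and 4 members (7.27%) had an unadjusted p under 0.05, as did 9.95% of all features. The 7 genes lower at both early times were Tcp1, Cct5, Cct6a, Hspe1, Hspa9, Dnajc5 and Dnajc9, which is 70.0% of the genes lower at 3 h and 77.8% of those lower at 6 h. Treated animals lay wholly below vehicle animals for 8 of 55 members at 3 h and 7 at 6 h, and for 5.97% and 6.96% of all features. At 1500 mg/kg and 3 h this held for 6 members and 3.77% of features.

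**Figure D1:**
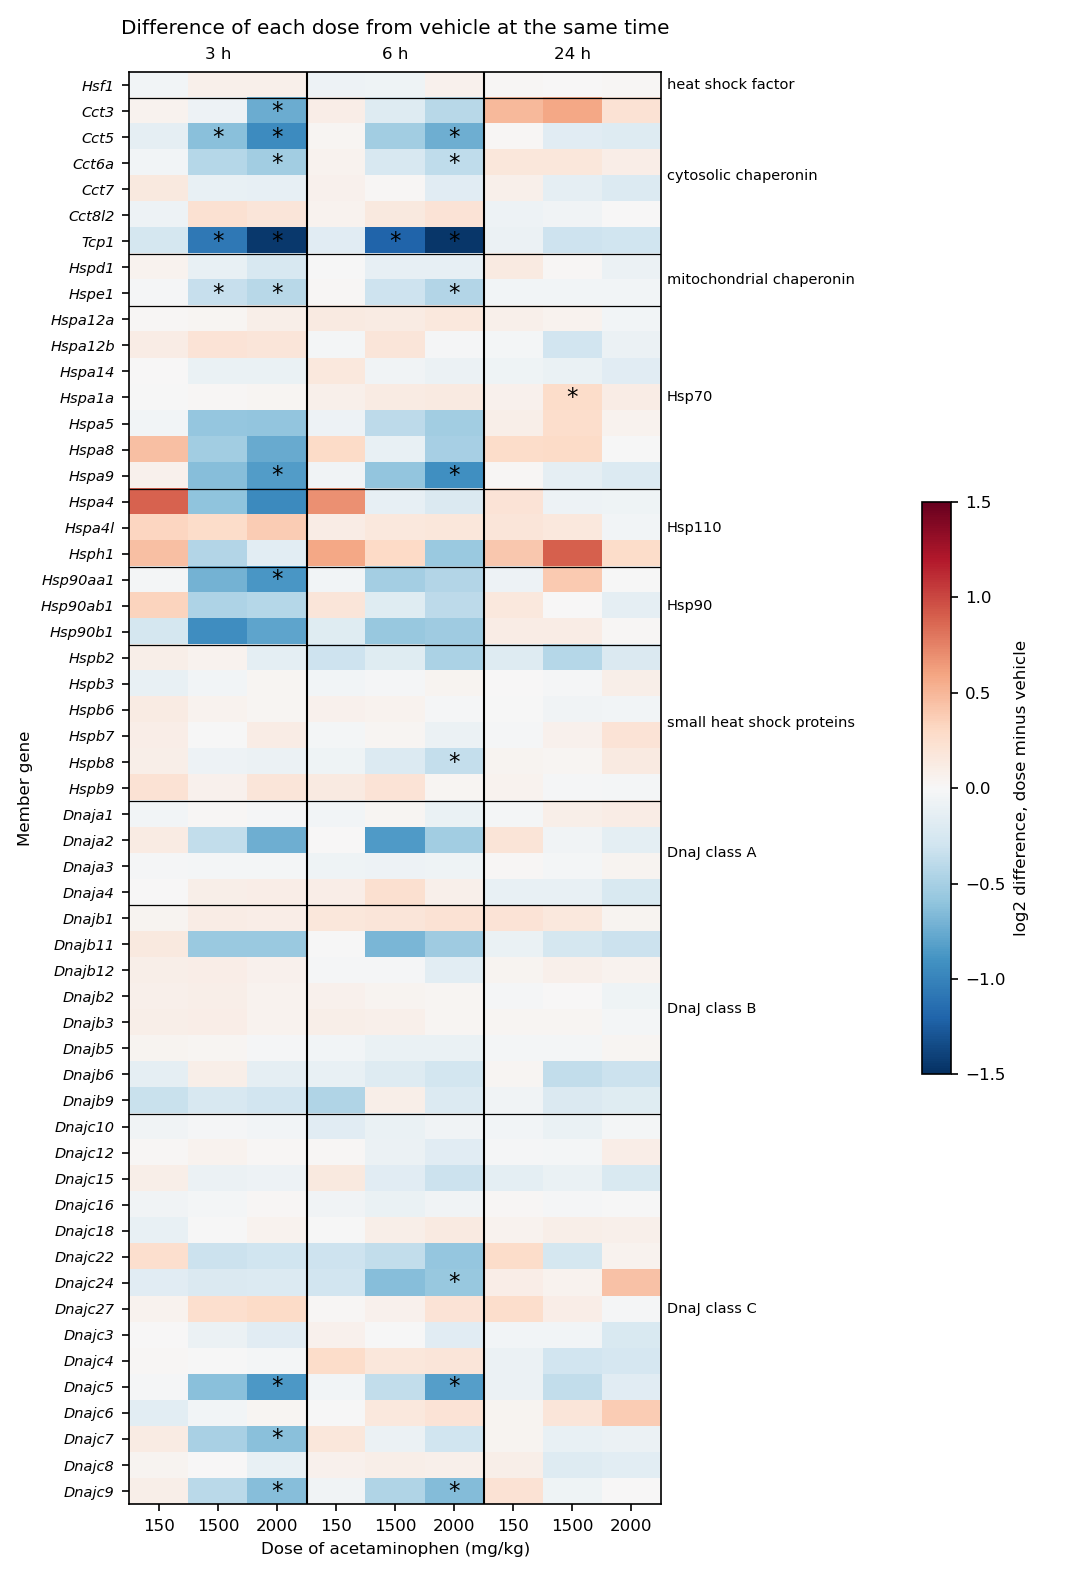
Log2 difference of each dose from its time-matched vehicle animals, for the 55 tested members in rows grouped by role and the 9 comparisons in columns from 150 to 2000 mg/kg within 3, 6 and 24 h. Blue is lower and red is higher than vehicle, the scale ends at -1.5 and 1.5, and a star marks an adjusted p under 0.05. Tcp1 is the darkest row, and Hspa1a at 1500 mg/kg and 24 h holds the one star on red.

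Tcp1 (Entrez 24818), which encodes the alpha subunit of the cytosolic chaperonin, had the largest fall. At 3 h its log2 ratios ran from -1.56 (lowest) over -1.15 (median) to -0.86 (highest) at 2000 mg/kg, against -0.16, 0.17 and 0.69 in vehicle animals. All 6 treated animals lay below all 6 vehicle animals, a fall by 1.45 on the log2 scale (SE 0.24, adjusted p = 3.99e-05, limma), which is 2.72-fold. At 6 h the ratios were -1.60, -1.26 and -0.68 at 2000 mg/kg, against -0.06, 0.23 and 0.58 in vehicle animals, again with no overlap (log2 difference -1.46, SE 0.24, adjusted p = 0.000243). By 24 h the 2000 mg/kg animals were spread from -1.45 over -0.09 to 0.61, around the vehicle values of -0.26, 0.03 and 0.38. The difference there was -0.30 (95% interval -0.79 to 0.19, adjusted p = 0.75), and its change from 6 to 24 h passed the test (1.16, SE 0.35, adjusted p = 0.0416).

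The other ring subunits that passed the test went the same way by smaller amounts, and Cct7 did not pass at any dose or time. Cct5 (Entrez 294864), the epsilon subunit, had -1.26, -0.91 and -0.61 as lowest, median and highest ratio at 2000 mg/kg and 3 h, against -0.16, -0.02 and 0.45 in vehicle animals, with no overlap. The log2 difference was -0.94 (SE 0.16, adjusted p = 3.17e-05), and at 6 h the difference was -0.73 (SE 0.16, adjusted p = 0.00175), also without overlap. Cct6a (Entrez 288620), the zeta subunit, was between -0.83 and -0.19 (median -0.49) at 2000 mg/kg and 3 h, against -0.20 to 0.22 (median -0.04) in vehicle animals, and 1 treated animal overlapped them (log2 difference -0.52, SE 0.13, adjusted p = 0.00416). At 6 h its difference was -0.38 (SE 0.13, adjusted p = 0.0467), with 5 of 6 treated animals below the vehicle mean. Cct3 (Entrez 295230), the gamma subunit, was lower at 3 h, with -1.19, -0.82 and -0.61 at 2000 mg/kg against -0.48, -0.07 and 0.17 in vehicle animals (log2 difference -0.75, SE 0.25, adjusted p = 0.0441). Its 6 h difference of -0.41 had a 95% interval of -0.91 to 0.08.

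Values varied among the members in this role. Of the 6 members in this role, 4 were lower at 3 h and 3 at 6 h, and the differences ran from -1.45 to 0.18 at 3 h and from -1.46 to 0.21 at 6 h. Cct8l2, a chaperonin-like gene that the rule includes by its name, had the positive end of both ranges (adjusted p = 0.241 at 6 h). The call of Cct3 at 3 h was lost in 9 of the 12 fits that each left out 1 animal (adjusted p up to 0.113, without treated animal 8511). That of Cct6a at 6 h was lost in 10 of 12 (up to 0.156, without treated animal 8597).

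**Figure D2:**
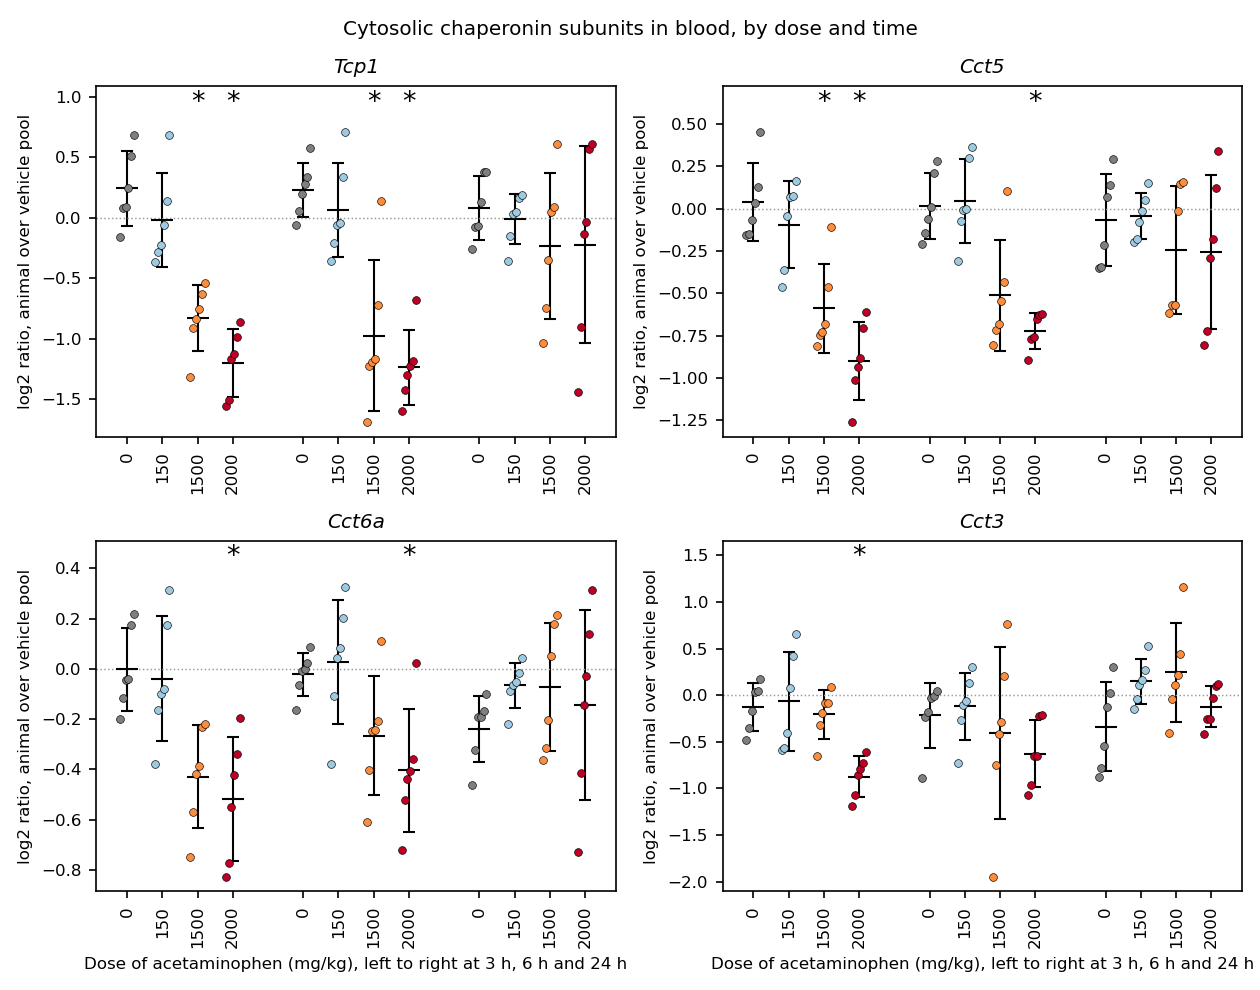
Log2 ratio of each animal over the vehicle pool (points) for Tcp1, Cct5, Cct6a and Cct3, by dose in mg/kg within 3, 6 and 24 h from left to right, with the mean and SD of the 6 animals as bars and a star where a dose differed from vehicle at an adjusted p under 0.05. At 3 and 6 h all 2000 mg/kg animals lie below 0 for Tcp1, Cct5 and Cct3, while at 24 h the treated animals of Tcp1 spread from -1.45 to 0.61.

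The mitochondrial folding genes showed a fall of the lid and of the mitochondrial Hsp70. Hspe1 (Entrez 25462), the lid of the mitochondrial chaperonin, had ratios of -0.52, -0.35 and -0.19 at 2000 mg/kg and 3 h, against -0.01, 0.06 and 0.20 in vehicle animals. The groups did not overlap, and the log2 difference of -0.42 (SE 0.09, adjusted p = 0.000848) is a 1.34-fold fall. At 6 h the ratios were -0.50, -0.44 and -0.15, against 0.02, 0.05 and 0.14 in vehicle animals (log2 difference -0.44, SE 0.09, adjusted p = 0.00133). Its partner Hspd1, the barrel, had differences of -0.24 (95% interval -0.60 to 0.12) at 3 h, where 1 of the 6 treated animals had no value, and -0.12 (-0.47 to 0.22) at 6 h, and neither passed. These intervals reach the size of the Hspe1 fall, so a change of that size in Hspd1 lies within its own error, and the difference between the genes was not tested. Hspa9 (Entrez 291671), the Hsp70 of the mitochondrial matrix that pulls in imported proteins, was lower by more: its ratios were -1.44, -0.95 and -0.50 at 2000 mg/kg and 3 h, against -0.28, -0.09 and 0.22 in vehicle animals (log2 difference -0.84, SE 0.19, adjusted p = 0.0015). At 6 h every treated animal again lay below every vehicle animal (log2 difference -0.91, SE 0.19, adjusted p = 0.00147).

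Among the cytosolic Hsp90 genes, Hsp90aa1 (Entrez 299331), the stress-inducible form, was lower at 3 h. Its ratios were -1.21, -0.75 and -0.63 at 2000 mg/kg, against -0.14, 0.01 and 0.30 in vehicle animals, with no overlap (log2 difference -0.87, SE 0.21, adjusted p = 0.00252). At 6 h its difference of -0.44 (95% interval -0.85 to -0.02) did not pass after adjustment (adjusted p = 0.191). Hsp90b1, the form of the endoplasmic reticulum, had differences of -0.79 at 3 h (SE 0.27, adjusted p = 0.0534) and -0.53 at 6 h (SE 0.27, adjusted p = 0.239). Hsp90ab1, the constitutive cytosolic form, had -0.42 and -0.40 at these times (adjusted p = 0.272 and 0.29).

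**Figure D3:**
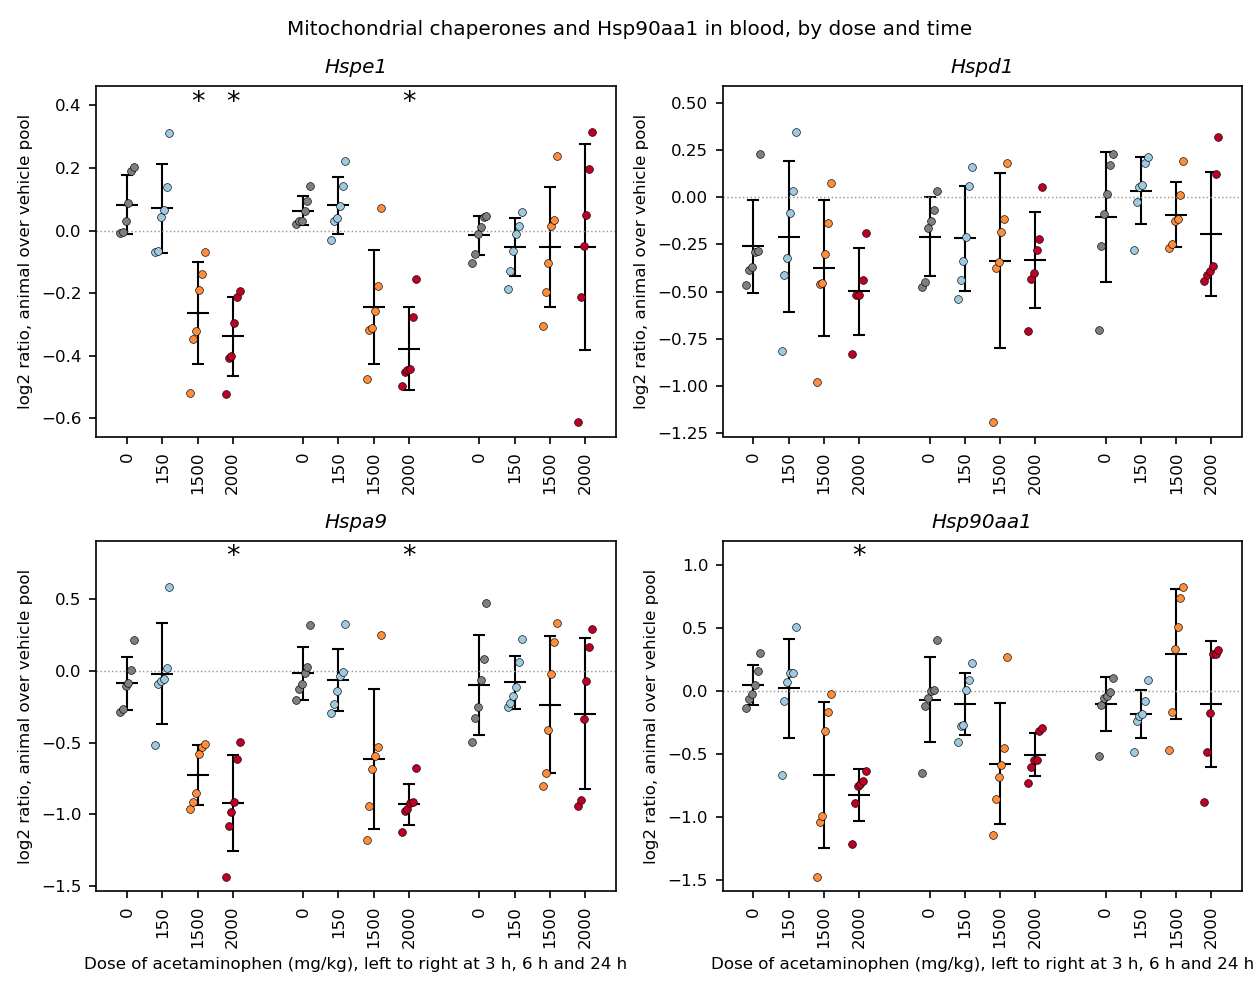
Log2 ratio of each animal over the vehicle pool (points) for Hspe1, Hspd1, Hspa9 and Hsp90aa1, by dose in mg/kg within 3, 6 and 24 h, with mean and SD as bars and stars for an adjusted p under 0.05. Hspe1 and Hspa9 are apart from vehicle at 2000 mg/kg at both early times, and Hspd1 overlaps its vehicle animals in every group.

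In the remaining Hsp70 and Hsp110 genes, which bind client chains and exchange their nucleotide, nothing else fell beyond the test. Hspa8, the constitutive Hsp70 of the cytosol, had ratios of -1.59, -1.46 and -0.63 at 2000 mg/kg and 3 h, against -1.17, -0.67 and 0.03 in vehicle animals (log2 difference -0.75, SE 0.28, adjusted p = 0.0787). The groups overlapped. Hspa5, the Hsp70 of the endoplasmic reticulum, had -0.59 at 3 h and -0.53 at 6 h (SE 0.26 each, adjusted p = 0.164 and 0.212). Hspa4, an exchange factor of the Hsp110 kind, had a difference of -0.96 at 3 h (SE 0.33, adjusted p = 0.0561), and that of Hsph1 at 6 h was -0.56 (adjusted p = 0.267). The heat shock factor itself, Hsf1, had small differences at every dose and time, at 2000 mg/kg 0.08, 0.06 and 0.02 at 3, 6 and 24 h (SE 0.06 each), and the 95% intervals of these 3 differences lay between -0.10 and 0.20.

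DnaJ proteins deliver clients to Hsp70. Of 15 tested class C members, 3 were lower at 3 h and 3 at 6 h, and 0 of 4 class A and 0 of 8 class B members were called at either time, beside the 8.32% and 8.26% of all features that were lower. With so few genes in classes A and B the counts do not set the classes apart, and the difference between classes was not tested. Dnajc5 (Entrez 79130), the cysteine string protein of secretory vesicles, had ratios of -1.13, -0.89 and -0.69 at 2000 mg/kg and 3 h, against -0.24, -0.05 and 0.12 in vehicle animals (log2 difference -0.86, SE 0.22, adjusted p = 0.00502). At 6 h the difference was -0.82 (SE 0.22, adjusted p = 0.00927), and no treated animal overlapped the vehicle animals at either time. Dnajc9 (Entrez 364240), a co-chaperone of histones, was between -0.80 and -0.06 (median -0.60) at 2000 mg/kg and 3 h, against -0.20 to 0.39 (median 0.08) in vehicle animals (log2 difference -0.64, SE 0.18, adjusted p = 0.0153). At 6 h its difference was -0.65 (SE 0.18, adjusted p = 0.0142), with the groups apart. Its call was lost at 3 h without vehicle animal 6370 (adjusted p = 0.0575) and at 6 h without treated animal 9434 (adjusted p = 0.0549).

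Dnajc7 and Dnajc24 were each called at 1 time. Dnajc7 (Entrez 303536), which links Hsp70 with Hsp90, had ratios of -1.12, -0.90 and -0.66 at 2000 mg/kg and 3 h, against -0.54, -0.24 and -0.10 in vehicle animals (log2 difference -0.63, SE 0.15, adjusted p = 0.00225). Its 3 probes disagreed. Tested singly, probes 535 and 3951 had -1.02 and -0.88 (adjusted p = 0.0161 and 0.00276) and probe 15291 had 0.01 (SE 0.12). Dnajc24 (Entrez 362184), needed to make the diphthamide residue of elongation factor, was lower at 6 h, with -0.85, -0.59 and -0.13 at 2000 mg/kg against -0.37, 0.12 and 0.16 in vehicle animals. The log2 difference was -0.56 (SE 0.18, adjusted p = 0.0379), 2 treated animals lay within the vehicle range, and the call was lost in 9 of the 12 fits that left out 1 animal (adjusted p up to 0.114, without treated animal 8597).

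**Figure D4:**
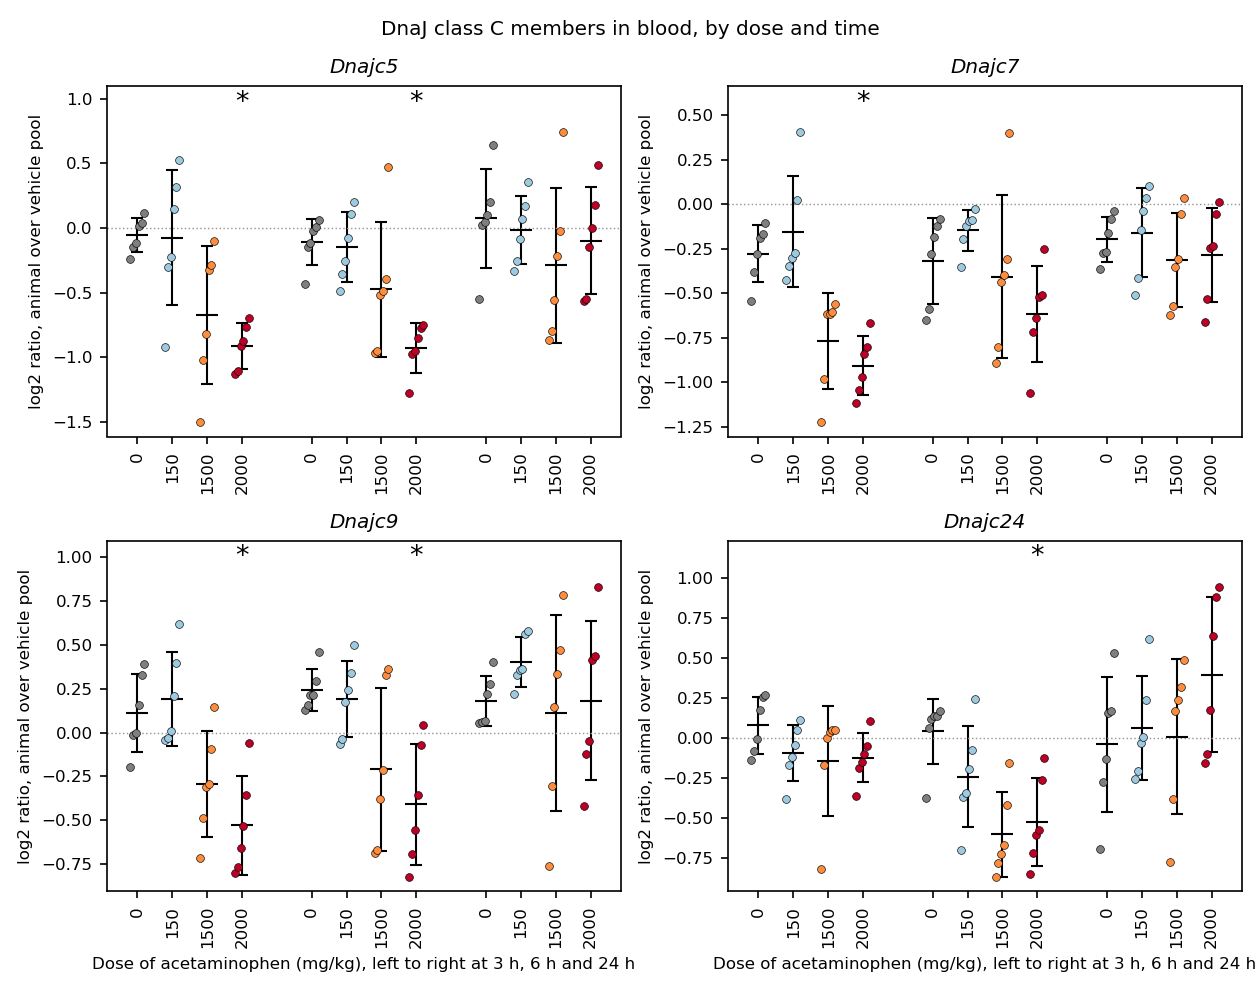
Log2 ratio of each animal over the vehicle pool (points) for Dnajc5, Dnajc7, Dnajc9 and Dnajc24, by dose in mg/kg within 3, 6 and 24 h, with mean and SD as bars and stars for an adjusted p under 0.05. Dnajc5 lies between -1.13 and -0.69 at 2000 mg/kg and 3 h, below all vehicle animals, and Dnajc24 at 2000 mg/kg is lower than vehicle at 6 h while its median at 24 h is 0.40.

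Large differences without a call in the other DnaJ classes were those of Dnaja2, a cytosolic partner of Hspa8 (-0.74 at 3 h, SE 0.28, adjusted p = 0.0913), and Dnajb11, the partner of Hspa5 in the endoplasmic reticulum (-0.56 at 3 h, SE 0.24, adjusted p = 0.139). Class B as a whole ran from -0.56 to 0.10 at 3 h, with a median of 0.01.

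The small heat shock proteins, which hold unfolded chains without ATP, had 1 call among 6 tested genes. Hspb8 (Entrez 113906), a partner of the co-chaperone Bag3, had ratios of -0.51, -0.40 and -0.14 at 2000 mg/kg and 6 h, against -0.13, -0.03 and 0.05 in vehicle animals. Every treated animal lay below every vehicle animal (log2 difference -0.35, SE 0.09, adjusted p = 0.00957), a 1.28-fold fall. At 3 h its ratios were -0.26, -0.11 and -0.01 at 2000 mg/kg, against -0.13, -0.03 and 0.07 in vehicle animals, which overlap. Hspb2 had -0.47 at 6 h (SE 0.17, adjusted p = 0.0641).

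Some T cell and B cell markers were also lower at 2000 mg/kg at 3 and 6 h. At 2000 mg/kg and 3 h, 6 of 10 tested T cell markers and 4 of 5 tested B cell markers were lower, with medians of -0.90 and -1.29, and at 6 h again 6 of 10 and 4 of 5, with medians of -0.83 and -0.86. At 24 h none of either list was called. The per-animal mean of the T cell list ran from -1.16 to -0.52 at 2000 mg/kg and 3 h, against -0.27 to 0.05 in vehicle animals. For the B cell list the range was -1.72 to -1.06 at 2000 mg/kg, against -0.43 to 0.36 in vehicle animals. Of 11 monocyte markers 5 were lower and 1 higher at 3 h, and 3 were lower at 6 h, with medians of 0.03 and 0.01. Natural killer cell markers had 1 of 7 lower at 3 h, platelet markers 1 of 7 higher at 3 h, and neutrophil markers 1 of 7 lower at 3 h; at 6 h none of these was called. No erythroid marker of 13 tested was called at either time. In whole blood, fewer cells of a type and less RNA per cell cannot be told apart, and the part of these markers in the chaperone falls was not tested. Since the values are ratios to a pool, they do not show at what level a marker is present.

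Array design was spread unevenly over the groups, because 91 of the 144 arrays lack 500 features that the others carry, which stand here as a smaller and a fuller design. At 3 h, 4 treated and 2 vehicle animals had both arrays of the fuller design, and 2 and 2 both of the smaller one. Within them the Tcp1 difference at 2000 mg/kg was -1.09 (SE 0.31, adjusted p = 0.256) and -1.72 (SE 0.37, adjusted p = 0.0165), and that of Cct5 was -0.79 (adjusted p = 0.249) and -1.08 (adjusted p = 0.0271). All 10 genes lower at 3 h had differences below 0 in both designs, but 0 passed in the fuller and 3 in the smaller design. Over all features, 0 of 14678 passed in the fuller and 233 of 14675 in the smaller design, so the lack of calls in the fuller design was not particular to these genes. At 6 h, 5 treated and 5 vehicle animals had both arrays of the smaller design. There 8 members passed, as did 1543 of 14678 features, with Tcp1 at -1.61 (adjusted p = 0.000152).

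At 1500 mg/kg the falls that passed the test were those of Tcp1, Cct5 and Hspe1. At 3 h, 3 of 55 members were lower, against 1.24% of all features, and 1 of 55 at 6 h, against 0.654%. Because both doses are set against the same vehicle animals, the calls at the 2 doses are not independent. Tcp1 at 3 h had ratios of -1.32, -0.80 and -0.54 at 1500 mg/kg, against -0.16, 0.17 and 0.69 in vehicle animals (log2 difference -1.07, SE 0.24, adjusted p = 0.0184), with no overlap. At 6 h its ratios were -1.69, -1.18 and 0.14, against -0.06, 0.23 and 0.58 in vehicle animals, so that 1 treated animal overlapped (log2 difference -1.21, SE 0.24, adjusted p = 0.0237). Cct5 at 3 h had -0.81, -0.70 and -0.11, against -0.16, -0.02 and 0.45 in vehicle animals (log2 difference -0.63, SE 0.16, adjusted p = 0.0294). Hspe1 at 3 h had -0.52, -0.26 and -0.07, against -0.01, 0.06 and 0.20 in vehicle animals (log2 difference -0.35, SE 0.09, adjusted p = 0.0354).

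Some B cell markers were lower at this dose too. At 3 h 0 of 7 neutrophil and 0 of 7 natural killer cell markers were called, with medians of 0.07 and -0.04. At 3 h, 3 of 5 B cell markers and 1 of 11 monocyte markers were lower, with medians of -1.05 and -0.16, and 0 of 10 T cell markers were called, with a median of -0.66. The per-animal mean of the T cell list ran from -0.76 to -0.40 at 1500 mg/kg and 3 h, against -0.27 to 0.05 in vehicle animals, and that of the B cell list from -1.35 to -0.86, against -0.43 to 0.36 in vehicle animals. At 6 h 1 of 5 B cell markers was lower, with list medians of -0.55 (B cell) and -0.46 (T cell). The part of these markers in the falls at 1500 mg/kg was not tested.

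The 1500 mg/kg calls depended on single animals. At 3 h, leaving out 1 animal lost the call of Tcp1 in 3 of 12 fits (vehicle animals 6370 and 8282 and treated animal 1286), of Cct5 in 7 and of Hspe1 in 6, with an adjusted p of up to 0.102, 0.15 and 0.157. Within the fuller design, 4 treated and 2 vehicle animals, the differences at 3 h were -0.65 for Tcp1, -0.52 for Cct5 and -0.18 for Hspe1 (adjusted p = 1.0 each). At 6 h the Tcp1 call was lost in 6 of 12 fits (adjusted p up to 0.0954, without treated animal 9676).

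Between 2000 and 1500 mg/kg no member and no other feature passed at any time (0.0% of features at 3, 6 and 24 h by limma), while 1, 3 and 3 members and 549, 677 and 506 features had an unadjusted p under 0.05. The Tcp1 difference between these doses was -0.37 at 3 h (95% interval -0.86 to 0.12), which holds 0 and also falls of more than the estimate.

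At 150 mg/kg no member was called at 3, 6 or 24 h, and 0.0% of all features were at each time. Unadjusted p-values under 0.05 were found for 1, 4 and 1 members and for 616, 693 and 399 features. The largest was Hspa4, whose ratios at 3 h were -0.27, -0.10 and 0.84 at 150 mg/kg, against -1.40, -0.92 and 0.15 in vehicle animals. Its log2 difference of 0.88 (SE 0.33) had an adjusted p of 0.998, and at 6 h it was 0.69 (SE 0.33, adjusted p = 0.961).

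Tcp1 at 150 mg/kg had -0.26 at 3 h (95% interval -0.75 to 0.23) and -0.17 at 6 h (-0.66 to 0.32). Hspe1, the most precisely measured of the genes that fell early, had -0.01 (-0.19 to 0.17) and 0.02 (-0.16 to 0.20), intervals that do not reach its differences of -0.42 and -0.44 at 2000 mg/kg.

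At 24 h 1 of 55 members rose, and none fell, at any dose. The gene was Hspa1a (Entrez 24472), the stress-inducible Hsp70, at 1500 mg/kg, where 0.845% of all features were higher; it was the one call above vehicle in any group. Its ratios were -0.08, 0.13 and 0.51 at 1500 mg/kg, against -0.34, -0.10 and -0.06 in vehicle animals, with 1 treated animal overlapping (log2 difference 0.27, SE 0.07, adjusted p = 0.0297), a 1.21-fold rise. At 2000 mg/kg the difference was 0.11 (95% interval -0.04 to 0.25, adjusted p = 0.668). A near-identical second copy of this gene exists, and 1 probe may not tell them apart. The call was lost in 5 of 12 fits that left out 1 animal (adjusted p up to 0.255, without treated animal 0861), and in the fit of the 24 h animals alone (adjusted p = 0.267).

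Hsph1, an exchange factor, had the largest difference at 1500 mg/kg and 24 h, without a call. Its ratios were -0.22, 0.29 and 0.88 at 1500 mg/kg, against -1.99, -0.27 and 0.19 in vehicle animals (log2 difference 0.90, SE 0.30, adjusted p = 0.172). The longer heat shock motif stood in the promoter of Hsph1 and of 4 other members. The differences of those 4 at this dose and time were 0.29 for Hspa8 (SE 0.28, adjusted p = 0.867), 0.09 for Dnaja1, 0.01 for Hspd1 and -0.04 for Hspe1 (adjusted p = 0.933, 0.997 and 0.973). The matched window of Hspa1a, the gene called higher, held neither form of the motif, and inexact units were not searched. The part of heat shock factor in the rise was not tested.

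**Figure D5:**
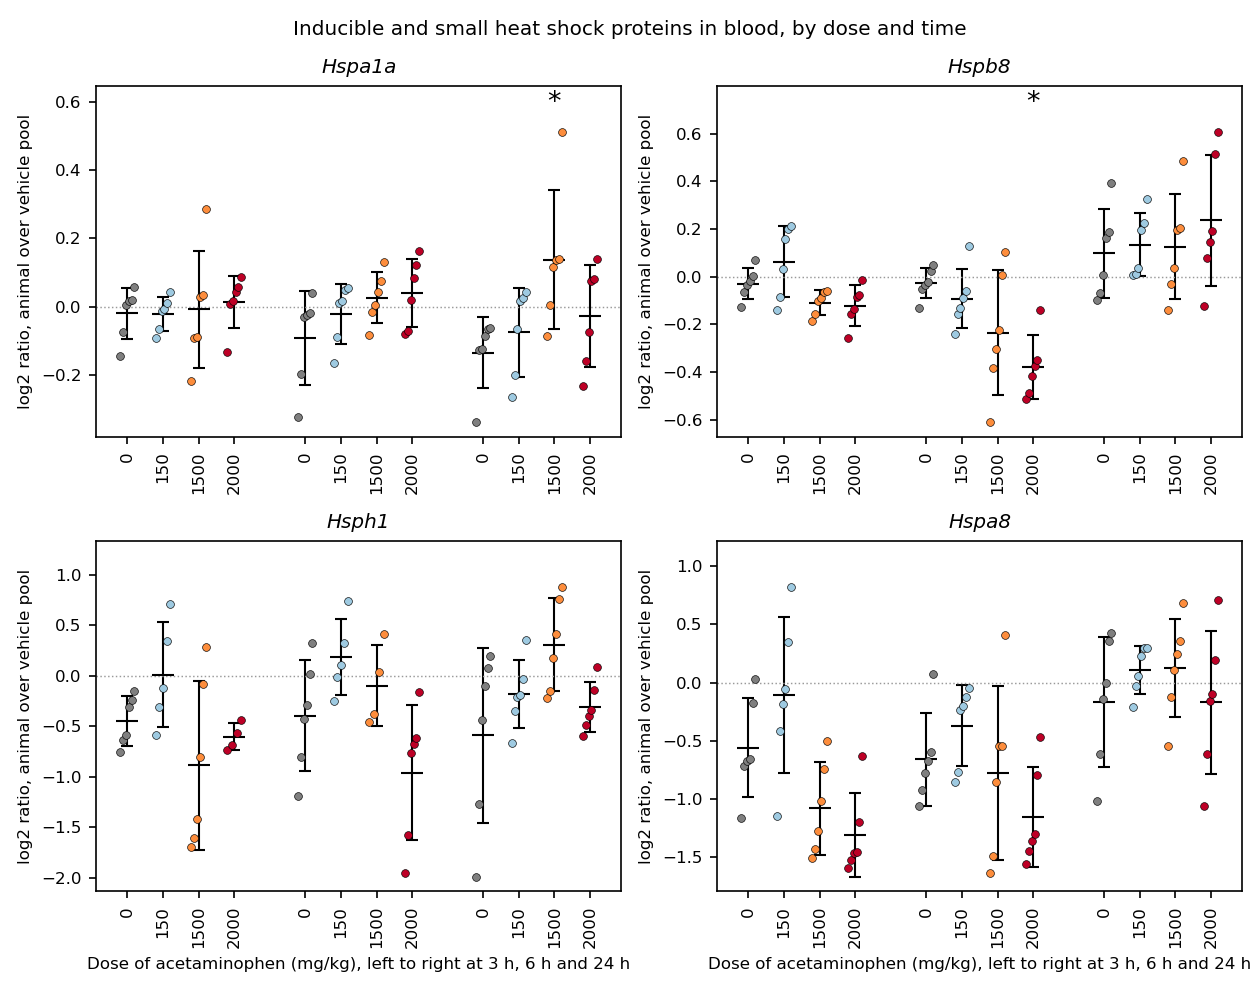
Log2 ratio of each animal over the vehicle pool (points) for Hspa1a, Hspb8, Hsph1 and Hspa8, by dose in mg/kg within 3, 6 and 24 h, with mean and SD as bars and stars for an adjusted p under 0.05. Hspa1a at 1500 mg/kg and 24 h runs from -0.08 to 0.51, Hspb8 at 2000 mg/kg and 6 h lies wholly below vehicle, and Hsph1 and Hspa8 have wide spreads in most groups.

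At 24 h the marker lists also stood differently: at 1500 mg/kg 3 of 7 neutrophil and 2 of 11 monocyte markers were higher, and at 2000 mg/kg 2 of 7 and 2 of 11. Of all 14678 features, 124 and 72 were higher at these doses. No T cell, B cell or erythroid marker was called at either dose, with medians of -0.50, -0.35 and -0.20 at 1500 mg/kg. The per-animal mean of the neutrophil list ran from 0.18 to 1.85 at 1500 mg/kg, against -0.24 to 0.36 in vehicle animals. Its part in the Hspa1a rise was not tested.

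Whether the early falls were lost by 24 h was tested directly, as the difference at 2000 mg/kg at one time minus that at another. From 3 to 24 h the difference of 2 of 55 members (3.64%) rose, where 2.34% of all features did. From 6 to 24 h that of 3 of 55 (5.45%) rose, where 3.0% did. These few calls do not set the members apart from all features. Between 3 and 6 h no member passed, and 1 feature did (0.00681%, higher). From 3 to 24 h the change was 0.75 for Cct5 (SE 0.22, adjusted p = 0.0448) and 0.61 for Cct6a (SE 0.18, adjusted p = 0.0496). From 6 to 24 h it was 1.16 for Tcp1, as given above, 1.002 for Dnajc24 (SE 0.26, adjusted p = 0.0147) and 0.49 for Hspb8 (SE 0.13, adjusted p = 0.0215). The change of Tcp1 from 3 to 24 h did not pass, nor did those of Cct5 and Cct6a from 6 to 24 h. Hspe1, Hspa9, Hsp90aa1, Cct3, Dnajc5, Dnajc7 and Dnajc9 had no change that passed, so a loss of their falls by 24 h was not shown. Dnajc24 had ratios of -0.16, 0.40 and 0.94 at 2000 mg/kg and 24 h, against -0.69, 0.01 and 0.53 in vehicle animals, which overlap.

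The changes of Cct5, Cct6a and Tcp1 are close to the threshold. With 1 animal left out they passed in 9, 7 and 7 of 24 fits, with an adjusted p of up to 0.136, 0.14 and 0.116, each without treated animal 2342 of 24 h. That of Hspb8 passed in 21 of 24, and not without vehicle animal 3565 or treated animals 2342 and 9999 (up to 0.0737).

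Genes that work beside the chaperones are given from 4 further lists, whose counts stand beside 8.32% (3 h) and 8.26% (6 h) of all features lower at 2000 mg/kg. Of 25 tested co-chaperones of Hsp70 and Hsp90, 2 were lower and 1 higher at 2000 mg/kg and 3 h, and 3 were lower at 6 h, with medians of 0.00 and -0.06. Sugt1, an Hsp90 partner, had -0.999 at 3 h (SE 0.21, adjusted p = 0.000685) and -0.71 at 6 h (SE 0.21, adjusted p = 0.0203), and Tomm70, a receptor that hands proteins to mitochondria, had -0.45 and -0.61 (adjusted p = 0.0341 and 0.00356). The rise at 3 h was Fkbp5, a glucocorticoid-responsive Hsp90 partner (0.39, SE 0.11, adjusted p = 0.0122), and the further fall at 6 h was Ppid (-0.39, SE 0.13, adjusted p = 0.0411).

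Prefoldin hands chains to the cytosolic chaperonin, and 1 of 6 tested prefoldin and cofactor genes was lower at each early time at 2000 mg/kg. That gene was Pfdn1, with -0.96 at 3 h (SE 0.27, adjusted p = 0.0136) and -0.90 at 6 h (SE 0.27, adjusted p = 0.0242), and it was lower at 1500 mg/kg and 3 h as well (-0.98, adjusted p = 0.0476). Among 7 mitochondrial proteases and chaperones, Htra2 was lower at 3 h (-0.30, SE 0.10, adjusted p = 0.0471) and Oma1 at 6 h (-0.67, SE 0.18, adjusted p = 0.0103). None of the 6 tested other heat shock factors and targets was called at 2000 mg/kg at any time, with medians of 0.04, 0.05 and -0.03 at 3, 6 and 24 h.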

How the data were processed

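Per the labels, each of 144 two-colour arrays compares 1 rat with a pool of vehicle blood RNA; dose came from a deposited key, and 72 of 72 times in it matched the labels. The authors deposited 1 log10 value per feature and array; how these were normalised is not stated in any source used here. Values were taken as log10 of Cy5 over Cy3, converted to log2 of animal over pool, and averaged over the 2 arrays of an animal. Exact 0 values (10.9%) were treated as missing. Probes of 1 gene were averaged. Features with values for at least 4 of 6 animals in all 12 groups were kept, 14678 in number.

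Differences were tested in 1 limma 3.58.1 fit (R 4.3.3) of 12 group means over 72 animals, two-sided, with Benjamini-Hochberg adjustment over all features and a threshold of 0.05; the code was tested on simulated data. Intervals are unadjusted. Tables and figures used Python 3.11.15 and matplotlib 3.10.9. Every called member was named, other members by the largest differences in a role, and up to 4 called genes per other list. Members, lists and tests were chosen with earlier results of these data known. Alternatives were array centring and scaling, zeros kept, single probes, complete values, array design, 1 dye orientation, separate fits, animal weights and leaving out each animal.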

Additional observations from a re-analysis of the deposited data

Results flagged for a closer look

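Among the 13 called genes, 6 of 156 groups of animals (3.85%) held 1 value set apart from the rest of its group by more than Dixon's 95% limit, where chance gives about 1 in 20. Vehicle animal 4101 of 6 h was the lowest for Cct3 (-0.89, the next value being -0.24) and for Dnajc24 (-0.37, next 0.06). Treated animal 1286 (1500 mg/kg, 3 h) was lowest for Dnajc24 (-0.82, next -0.17). Vehicle animal 2507 of 24 h was lowest for Hsp90aa1 (-0.52, next -0.11). For Hspa1a, treated animal 4010 (2000 mg/kg, 3 h) was lowest (-0.13, next 0.01), and so was vehicle animal 7067 of 24 h (-0.34, next -0.13). Without animal 7067 the Hspa1a difference at 1500 mg/kg and 24 h no longer passed (0.23, adjusted p = 0.103).

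The 2000 mg/kg difference changed between times, by a test of the change itself, for Cct5 (0.75) and Cct6a (0.61) from 3 to 24 h and for Tcp1 (1.16), Dnajc24 (1.002) and Hspb8 (0.49) from 6 to 24 h.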

How the results depend on the processing

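The 29 gene calls were each followed through the alternative settings, which gave 732 combinations of a call and a setting. Of these, 564 kept the call, 168 lost it and 0 turned direction. Most of them leave out only 1 animal and share nearly all data with the main fit, so a turn was unlikely from the start. With animal quality weights the members called were 9 (1500) and 22 (2000 mg/kg) at 3 h, 11 and 21 at 6 h, 2 and 1 between 2000 and 1500 mg/kg at 3 and 6 h, and 10 and 9 for the changes to 24 h from 3 and 6 h. Calls rose over the whole array in these fits. Of 14678 features 1214 and 3917 were called at 3 h, against 190 and 1355 in the main fit. At 6 h 1820 and 3466 were called, against 110 and 1354. Between the 2 high doses 614 were called at each of 3 and 6 h, and for the changes 1742 and 1454. Array design as a covariate gave 5 at 1500 mg/kg and 3 h, where 297 features were called. A separate fit per time gave 5 at 3 h, 4 at 6 h and 0 at 24 h for 1500 mg/kg, beside 488, 227 and 40 features. Animals of the fuller design gave 0 at 1500 and 0 at 2000 mg/kg at 3 h, where no feature at all was called. Those of the smaller gave 3 at 2000 mg/kg and 3 h (233 features) and 4 and 0 at 1500 mg/kg at 6 and 24 h (689 and 165 features). For the change from 6 to 24 h they gave 6 (1041 features). Cy5 arrays alone gave 1, 0 and 0 at 1500 mg/kg at 3, 6 and 24 h (46, 8 and 102 features). For the changes from 3 and 6 h they gave 0 and 1 (208 and 233 features). Cy3 arrays alone gave 1 at 1500 mg/kg and 3 h (107 features), and 0 and 0 for the changes (280 and 224 features). For the change from 3 to 24 h, centring gave 1, scaling 4 and zeros kept 0, beside 389, 450 and 347 features. Leaving out 1 animal gave 0 to 5 and 0 to 9 at 1500 mg/kg at 3 and 6 h, 8 to 12 and 6 to 10 at 2000 mg/kg, 0 to 1 at 1500 mg/kg and 24 h, and 0 to 5 and 1 to 6 for the changes from 3 and 6 h. The causes were not tested. No paired analysis was possible because animal numbers are not shared between groups.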

Other observations

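Some members read below the pool even in the vehicle animals that made it. Hspa4 averaged -0.78, -0.67 and -0.56 in vehicle animals at 3, 6 and 24 h, and 16 of 18 vehicle animals lay below 0. Hsp90ab1 averaged -0.66, -0.56 and -0.30, and Hspa8 -0.56, -0.66 and -0.17. These 3 of 55 members, and 0.525% of all features, had vehicle means below -0.4 at both 3 and 6 h, a limit chosen after the values were seen. Comparisons between doses use the vehicle animals and not the pool, and the cause was not tested.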
